A study of Caenorhabditis elegans with 6 samples.

Results

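Chemoreceptor genes of *C. elegans* encode candidate seven-transmembrane receptors that sensory neurons use to detect odors, tastes and pheromones. They form one of the largest gene families of the nematode, fall into named classes such as *str*, *srh* and *sre*, and are grouped into the Str, Sra and Srg superfamilies and several solo classes. Most members with a known expression pattern are expressed in a few sensory neurons, and most are not known to act in the germline. 22G-RNAs are small RNAs that start with G and are made by RNA-dependent RNA polymerases on transcripts, to which they are antisense. Argonaute proteins bind them, and in the germline they can silence a gene or mark it as permitted for expression. A 22G-RNA count is a measure of these small RNAs and not of the mRNA.

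Here 60 chemoreceptor genes were examined, out of 1309 protein-coding chemoreceptor genes and 22185 genes listed in all. They were chosen by name and by level: a gene symbol of a chemoreceptor class in Ensembl, a protein-coding biotype, and at least 30 raw 22G-RNA counts summed over all 6 libraries. The summed counts therefore chose the genes, and how many genes passed is a description without a test. The lowest genes inside the limit were *srd-20* and *srv-7* with 31 counts each, followed by *srj-13* with 32. Just outside it lay *srx-8*, *srx-13* and *srx-98* with 28 each.

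The libraries were made from whole gravid adults of 2 genotypes, collected 65 hours after arrested L1 larvae were plated. One was wild-type (strain N2). The other was *lotr-1(sam117)* (strain RFK1256), in which the whole coding sequence of *lotr-1* is deleted, so that the LOTUS and Tudor domain protein LOTR-1 of perinuclear germ granules is missing. Each genotype had 3 libraries, built from RNA treated with a pyrophosphohydrolase (RppH) so that small RNAs with a triphosphate at the 5′ end could be captured.

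Each library held between 3150716 and 3829101 counts of 22G-RNAs at the listed loci. A count of 3, taken as the floor of detection, was between 7.84e-05% and 9.52e-05% of a library. The *lotr-1* locus itself had 477, 522 and 563 counts in wild-type libraries, against 40, 49 and 60 in the mutant libraries, lower in each of these than in any wild-type one. Counts were divided by size factors, which averaged 1.32 ± 0.144 for wild-type libraries and 0.776 ± 0.0553 for the mutants (SD, n = 3). Dividing by the library total instead moved the median log2 fold change of all tested loci from 0.04 to −0.77, so every change below is relative to the scaling named with it. Whole animals were used, so fewer cells with 22G-RNAs and fewer 22G-RNAs per cell cannot be told apart. The labelled stage could not be checked with tissue markers, since mRNA was not measured.

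Few chemoreceptor genes carried 22G-RNAs. Only 4.58% of them (60 of 1309) reached 30 counts, against 47.3% of all protein-coding genes (9338 of 19725). No count at all was found at 728 chemoreceptor genes, or 55.6%, against 18.03% of protein-coding genes, and 521 more had between 1 and 29. The family makes up 6.64% of the protein-coding genes listed.

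The 60 genes came from most classes. The *sre* class had 8 of its 54 genes among them (14.8%), *srt* had 6 of 61 (9.84%) and *srd* had 6 of 67 (8.96%). The large *srw* class had 1 of 109 (0.917%), and no *srb*, *srr*, *srxa* or *srn* gene reached the limit. By superfamily, the shares were 8.87% in Sra (11 of 124), 5.18% in Srg (16 of 309), 4.77% in Str (28 of 587) and 1.73% in the solo classes (5 of 289).

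**Figure D1:**
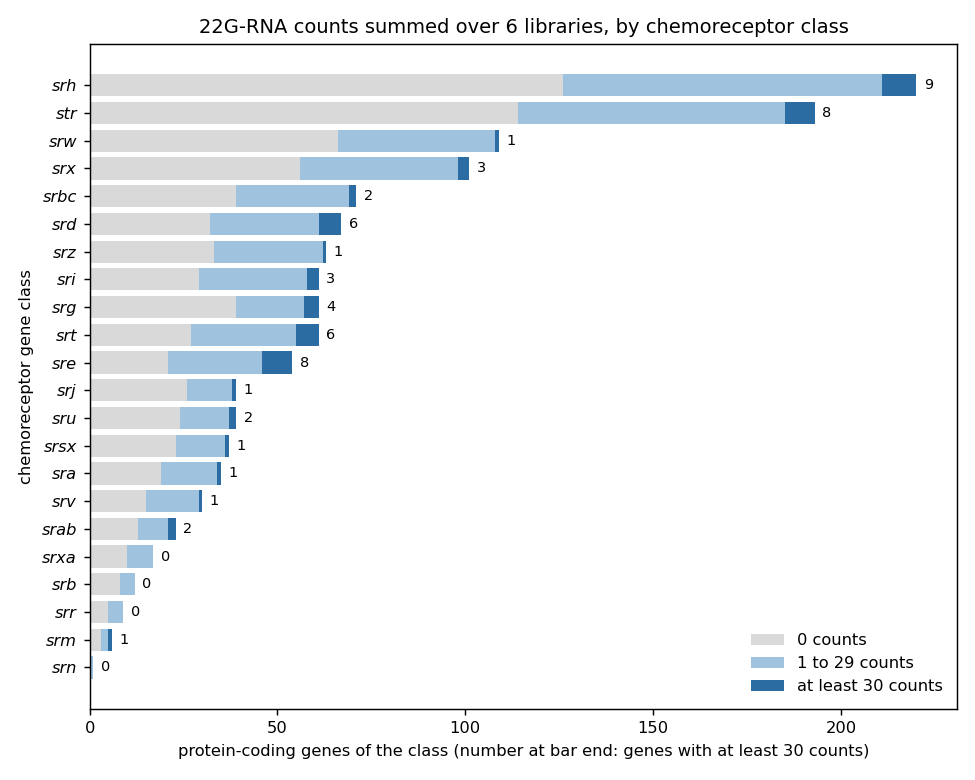
Number of protein-coding genes in each chemoreceptor class (horizontal axis), split by 22G-RNA counts summed over 6 libraries into 0, 1 to 29 and at least 30, with the number of genes in the last group at the end of each bar. Every class is mostly grey or light blue, and *srh*, *sre* and *str* gave the most genes past the limit with 9, 8 and 8.

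Most of the family lies on chromosome V, which held 890 of the 1309 genes and 32 of the 60. These were 3.60% of the chemoreceptor genes on V. The shares were 14.7% on chromosome I (5 of 34), 8.28% on II (14 of 169), 6.06% on X (2 of 33), 3.95% on IV (6 of 152) and 3.23% on III (1 of 31). Genes past the limit had a median of 1056 exonic bases and 6 exons, and the 1249 genes below it had 1028 bases and 5 exons. Even among the 60 the counts were uneven, with sums from 31 to 10913 and a median of 77, and 3 genes held most of them.

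Few of the receptors that have been studied by name reached the limit, as in the family as a whole. Of 28 receptors listed because their expression or ligands are known, 2 were among the 60, *srg-34* and *srbc-64*. In the whole family the share was 4.58% (60 of 1309). The latter encodes a pheromone receptor of the ASK sensory neurons. The pheromone receptor genes *srg-36* and *srg-37* had 2 and 1 counts in all 6 libraries together. *sri-14* had 13, and the other 23 had between 0 and 2. *odr-10*, which encodes the diacetyl receptor and falls outside the name rule, had 3.

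The comparison between genotypes asks how the 22G-RNAs at these genes differ when LOTR-1 is missing. As a group the 60 genes kept about the same share of the library totals of 22G-RNAs, while single genes differed. With size factors, *sra-35* and 6 other genes rose, *srt-43* and 8 others fell, and 44 were not called. With division by the library total, as in the shares, 4 rose and 13 fell. A gene was called when the DESeq2 test against a 2-fold change gave a Benjamini-Hochberg adjusted p-value below 0.1 over all loci. In every alternative test, also those against no change, a call needed an estimate beyond 2-fold as well.

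The 60 genes together took 0.122%, 0.119% and 0.127% of all counts in the wild-type libraries. In the *lotr-1(sam117)* libraries they took 0.127%, 0.125% and 0.130%. The means, 0.122% ± 0.00380 and 0.127% ± 0.00217 (SD, n = 3), differed by 0.00485 percentage points, and the libraries of the genotypes overlapped. This share does not depend on the size factors.

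What made up the share differed. *sra-35* alone took 20.6%, 19.6% and 19.9% of the counts at the 60 genes in wild-type libraries, against 61.0%, 63.6% and 61.5% in the mutant. *srt-43* went the other way, with 30.0%, 31.8% and 30.8% in wild-type libraries, against 4.78%, 4.50% and 5.29% in the mutant. For both genes the 3 libraries of a genotype lay close together and far from those of the other. *srd-70* held 9.07% ± 0.669 and then 12.5% ± 0.342 (SD, n = 3), *srg-34* held 5.76% ± 0.5003 and then 1.41% ± 0.186, and *srx-12* held 4.67% ± 0.186 and then 1.91% ± 0.0687. These shares are not per length and do not order the genes.

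Without the 5 genes of highest mean count, the other 55 took 0.0363% ± 0.00157 of all wild-type counts, against 0.0221% ± 0.00172 of the mutant counts (SD, n = 3), a difference of −0.0142 percentage points without overlap between libraries. The near equality of the full share thus rested on the 5 highest genes, among them *sra-35*, which went from 0.0245% ± 0.00101 to 0.0789% ± 0.00145 of all counts. The chemoreceptor genes below the limit took 0.0140% ± 0.000299 and 0.00992% ± 0.000802 (SD, n = 3). Shares amount to scaling by the library total, with which the median log2 fold change of all tested loci was −0.77. Lower shares were thus common among the tested loci and not particular to these genes. Chemoreceptor genes with at least 1 count numbered 277, 291 and 298 in wild-type libraries, against 241, 264 and 259 in the mutant. Over all listed loci the numbers were 14157, 14457 and 14606 in wild-type libraries, against 14007, 14157 and 14068 in the mutant. Library totals were similar, but size factors averaged 1.32 for wild-type and 0.776 for the mutant.

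**Figure D2:**
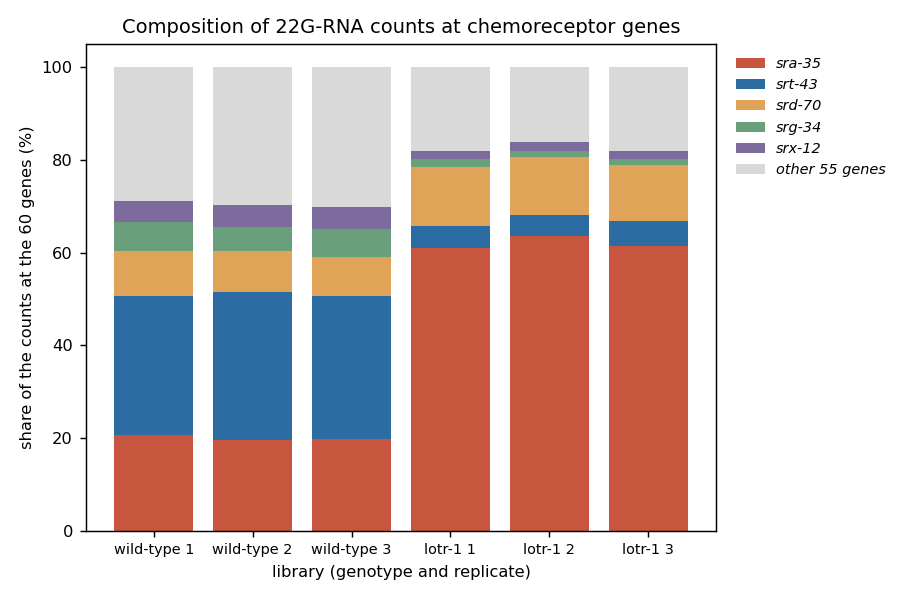
Share of the 22G-RNA counts at the 60 chemoreceptor genes (vertical axis, percent) taken by 5 named genes and by the other 55, for each of the 3 wild-type and 3 *lotr-1(sam117)* libraries. The *srt-43* band is about 30% high in the wild-type bars and about 5% in the mutant bars, while the *sra-35* band goes from about 20% to over 60%.

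Of the 60 genes, 7 were called higher in *lotr-1(sam117)* (11.7%) and 9 lower (15%). Over all 11682 loci with an adjusted p-value the shares were 8.15% higher and 8.14% lower, and over the 9338 protein-coding genes with at least 30 counts they were 8.12% and 9.49%. Both shares among the 60 genes lay a little above the background, on few genes, and this was not tested. Many called genes passed the count limit only through the genotype in which they were high. All genes called lower but *srt-43* reached 30 counts in wild-type alone, and *srh-71*, *sre-51* and *sre-50* did so in the mutant alone. For these genes the choice and the call rest on the same counts. Without wild-type replicate 2 the genes called higher numbered 4, and without *lotr-1(sam117)* replicate 1 or replicate 3 those called lower numbered 5 each. Calls over all loci also became fewer without 1 library, from 952 higher and 951 lower to 829 to 852 and 811 to 860. With scaling to the library total, 4 were called higher and 13 lower, beside 4.26% and 20.0% of all loci and 4.38% and 23.4% of the protein-coding genes. The split between directions therefore follows the scaling, for these genes as for all others.

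The median log2 fold change of the 60 genes was −0.13, beside −0.05 for protein-coding genes with at least 30 counts. With total scaling the medians were −0.92 and −0.83. The size of the changes without regard to sign had a median of 1.22 on the log2 scale, and of 0.68 for the protein-coding genes. Since estimates were not shrunken, counting noise adds to this size, most at low counts. The 60 genes had a median of 77 summed counts and a median SE of 0.66. The sizes were not compared at matched counts, so whether chemoreceptor genes changed more than others was not tested. Estimates were above 0 at 28 genes and below 0 at 32, or at 15 and 45 with total scaling. A limit on summed counts lets in genes that are high in 1 genotype only: 19 of the 60 reached 30 counts in wild-type alone, 5 in the mutant alone, 20 in each genotype and 16 in neither. These medians and counts are thus descriptions of the genes that passed, not of the family.

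**Figure D3:**
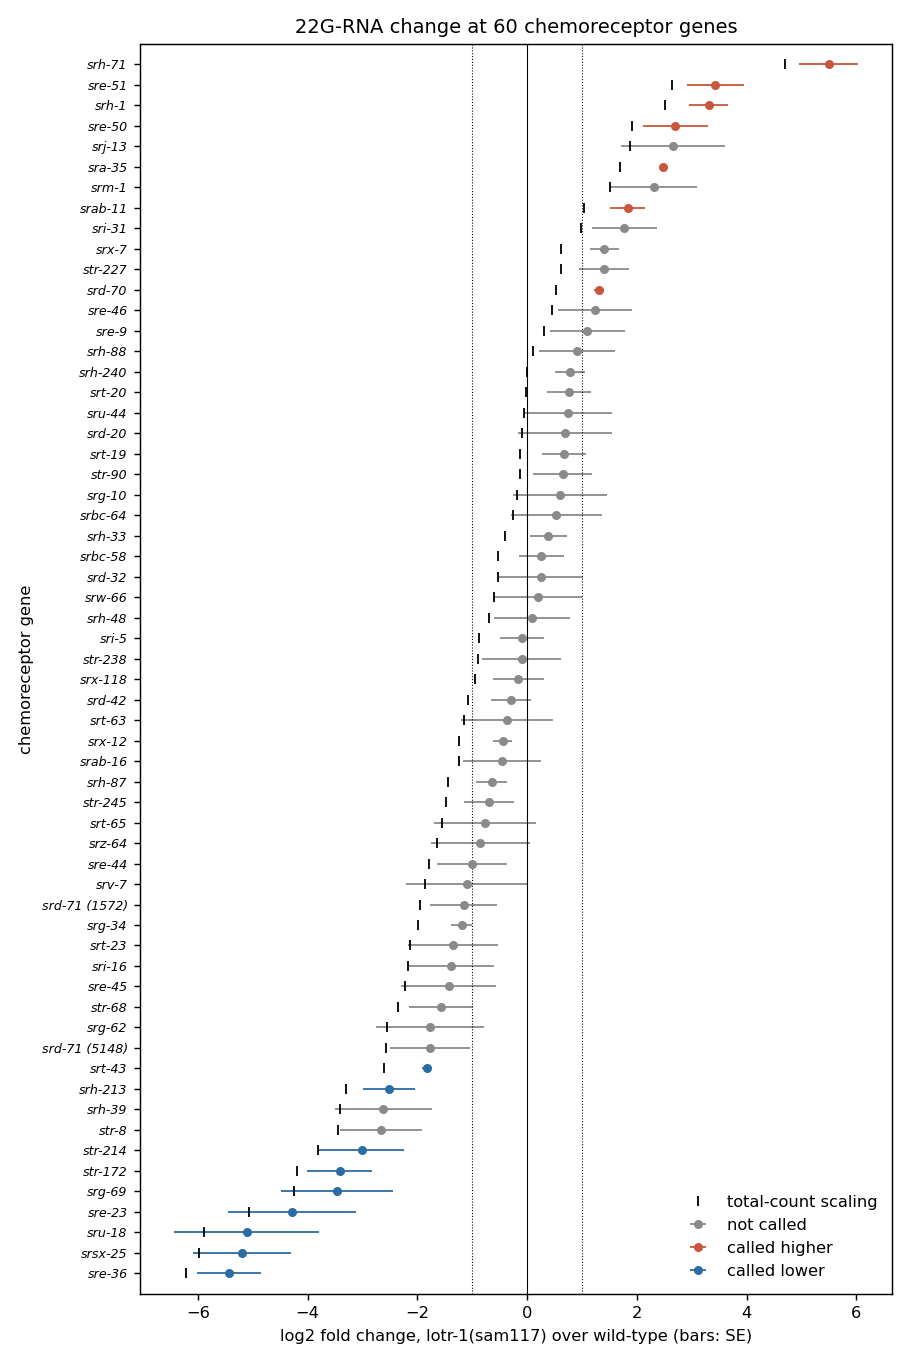
Log2 fold change of 22G-RNAs, *lotr-1(sam117)* over wild-type, at each of the 60 chemoreceptor genes, with size-factor scaling (points, bars give the SE) and total-count scaling (black ticks), with dotted lines at a 2-fold change; 2 genes share the symbol *srd-71* and carry the last digits of their identifiers. Called genes lie between 1.31 and 5.49 or between −1.83 and −5.43, and grey genes that were not called reach from −2.66 to 2.66 with wide bars.

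Among the Sra superfamily, 4 of 11 genes rose and 2 fell, or 2 and 2 with total scaling. Of all loci, 8.15% were called higher and 8.14% lower, or 4.26% and 20.0% with total scaling. The counts by superfamily are small and were not tested. *sra-35* (WBGene00005061, chromosome II, 4524634 to 4527900 on the reverse strand of WBcel235) had the most counts of the family over all 6 libraries, and the most in the mutant libraries, while in wild-type *srt-43* had more. Its counts were 791, 808 and 963 in wild-type libraries, against 2603, 3040 and 2708 in *lotr-1(sam117)*, so that the lowest mutant library lay far above the highest wild-type one. The log2 fold change was 2.47 (SE 0.0561; DESeq2, Benjamini-Hochberg adjusted p = 2.96e-150), and 1.69 with total scaling (adjusted p = 9.81e-34). Per kilobase of exon its normalized level went from 633 ± 34.2 to 3515.6 ± 46.6 (SD, n = 3). The nearest gene, *B0304.2*, lies 45 bases away and was not called (log2 fold change 0.63, SE 0.224).

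The *sre* class moved in both directions. *sre-36* (WBGene00008728, chromosome V, 16399688 to 16401625, forward strand) had 147, 180 and 191 counts in wild-type libraries, against 3, 1 and 3 in the mutant. Its 22G-RNAs were nearly gone from the mutant libraries, and the log2 fold change was −5.43 (SE 0.581; adjusted p = 3.70e-13 in DESeq2). *sre-23*, on chromosome I, had 19, 24 and 23 counts against 0, 2 and 0. With only 2 mutant counts its wild-type to mutant ratio, scaled by size factors, was 19.4 (95% exact counting interval 5.15 to 163), and the adjusted p in DESeq2 was 0.0335. The call was lost without mutant replicate 1 or replicate 3, where the log2 fold changes were −3.74 and −3.72.

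*sre-50* and *sre-51*, by contrast, rose. They lie 6654 bases apart on chromosome II, on the same strand. *sre-51* had 3, 7 and 6 counts in wild-type libraries, against 31, 26 and 43 in the mutant, and *sre-50* had 4, 4 and 7 against 14, 21 and 22. Neither overlapped between genotypes. Their log2 fold changes were 3.43 (SE 0.517, adjusted p = 2.60e-05) and 2.70 (SE 0.589, adjusted p = 0.0270) in DESeq2. *C50E10.2*, which lies between them, had 25, 21 and 26 counts in wild-type libraries, against 6, 15 and 7 in the mutant, and was not called (−0.62, SE 0.518). *sre-46* of the same class had 5, 8 and 8 counts against 4, 11 and 14 and was not called.

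The last Sra gene called was *srab-11* on chromosome V, with 28, 19 and 30 counts in wild-type libraries, against 60, 46 and 54 in the mutant. The libraries did not overlap, and the log2 fold change was 1.83 (SE 0.318; DESeq2, adjusted p = 0.0592). With total scaling it was 1.04 and neither *srab-11* nor *sre-50* was called. *srab-11* lost the call without wild-type replicate 2 or 3 or mutant replicate 1 or 3, with estimates from 1.63 to 1.98 over the 6 refits. *sre-50* lost it without wild-type replicate 1 or 2 or mutant replicate 2 or 3, with estimates from 2.55 to 2.92.

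In the Srg superfamily, 3 of 16 genes fell, or 4 with total scaling, and 0 rose in the DESeq2 test against 2-fold under either scaling, beside 8.15% and 4.26% of all loci. No rise had an unadjusted p under 0.05 in that test, while edgeR against 2-fold and DESeq2 against no change each called 1 higher, *srx-7*. Estimates were below 0 at 11 of the 16 and above 0 at 5, or at 15 and 1 with total scaling. *srt-43* (WBGene00008937, chromosome V, 12769246 to 12771018, forward strand) had the highest wild-type level per length of the 60 genes. Its counts were 1152, 1309 and 1491 in wild-type libraries, against 204, 215 and 233 in the mutant, without overlap. The log2 fold change was −1.83 (SE 0.0925; DESeq2, adjusted p = 8.52e-18), and the level per kilobase went from 826 ± 18.01 to 233.6 ± 22.6 normalized counts (SD, n = 3). The neighbor *scc-3*, a cohesin subunit gene 1313 bases away, had a log2 fold change of −0.05.

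The other Srg genes that fell had low counts. *sru-18*, on chromosome IV, had 18, 14 and 32 counts in wild-type libraries, against 0, 1 and 0 in the mutant, a ratio of 37.5 (95% exact counting interval 6.50 to 1504.7; DESeq2, adjusted p = 0.0139). Its neighbors *sru-17* and *sru-20* had 11 and 5 counts in all, and *sru-19* had 0. *srg-69*, on chromosome II, had 19, 18 and 19 counts against 2, 1 and 0, a ratio of 10.9 (3.56 to 54.7; adjusted p = 0.0978). The call of *srg-69* was lost when any 1 of the 6 libraries was left out, with log2 estimates from −4.50 to −2.88. That of *sru-18* was lost without mutant replicate 1 (−4.66) or replicate 3 (−4.65). These intervals cover counting error only.

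*srg-34* (chromosome V) and *srx-12* (chromosome IV) were the abundant Srg genes that were not called. *srg-34* had 236, 214 and 288 counts in wild-type libraries, against 67, 69 and 53 in the mutant, without overlap. Its log2 fold change of −1.20 (SE 0.186) did not pass the DESeq2 test against 2-fold (adjusted p = 1), while with total scaling it was −1.98 and called lower (adjusted p = 3.16e-07). *srx-12* had 173, 190 and 236 counts against 80, 95 and 82, which gave −0.45 (SE 0.172). *srx-7* had 32, 40 and 65 against 64, 75 and 72, and its estimate of 1.41 (SE 0.262) was not called (adjusted p = 0.565).

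In the Str superfamily, 3 of 28 genes rose and 3 fell, or 2 and 6 with total scaling, near the shares of all loci (8.15% and 8.14%, or 4.26% and 20.0%). *srh-71* (WBGene00005292, chromosome II, 3123506 to 3124899, forward strand) had the largest rise of the 60. It was almost without 22G-RNAs in wild-type, with 2, 3 and 4 counts, and had 64, 90 and 84 in the mutant. The log2 fold change was 5.49 (SE 0.539; DESeq2, adjusted p = 1.28e-15), and 4.71 with total scaling. The gene next to it, *T10D4.6* at 323 bases, rose as well, from 28, 26 and 34 counts to 149, 163 and 134 (3.11, SE 0.227, adjusted p = 2.66e-19).

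*srh-1* (WBGene00005227, chromosome V, 11485858 to 11487266, forward strand) had 9, 15 and 13 counts in wild-type libraries, against 83, 55 and 74 in the mutant. The groups did not overlap and the log2 fold change was 3.30 (SE 0.354; DESeq2, adjusted p = 1.02e-09). It shares 286 exonic bases with *T11F9.10* on the same strand, so that reads there cannot be assigned to one gene. *T11F9.10* did not rise, and had 422, 475 and 474 counts in wild-type libraries, against 97, 175 and 125 in the mutant (−1.03, SE 0.145, not called).

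*srd-70* (WBGene00005147, chromosome V, 20454111 to 20456487, forward strand) had 376, 368 and 411 counts in wild-type libraries, against 548, 596 and 535 in the mutant. Its log2 fold change was 1.31 (SE 0.0942; DESeq2, adjusted p = 0.00869), not far above the limit of 1. With total scaling the value was 0.52 and not called. It was also not called when wild-type replicate 2 (1.25) or wild-type replicate 3 (1.26) was left out.

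The 3 Str genes that fell were *srh-213*, *str-172* and *str-214*. *str-172*, on chromosome IV, had 50, 54 and 59 counts in wild-type libraries, against 4, 4 and 1 in the mutant, and the estimate was −3.41 on the log2 scale (SE 0.593; adjusted p = 4.22e-04 in DESeq2). *srh-213*, on chromosome V, had 61, 48 and 65 against 6, 8 and 4, with −2.51 (SE 0.473, adjusted p = 0.0105). Neither gene overlapped between genotypes. *str-214*, also on V, had 18, 23 and 44 against 2, 1 and 3, with −3.02 (SE 0.773, adjusted p = 0.0594), and lost its call without any library but wild-type replicate 1, over a range of −3.45 to −2.64. Of 8 *str* genes among the 60, the DESeq2 test against 2-fold called 0 higher under either scaling (0 with an unadjusted p under 0.05). edgeR against 2-fold and DESeq2 against no change each called 1, *str-227*.

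By chromosome, 4 of the 14 genes on II were called higher and 1 lower, beside 7.72% and 9.96% of the protein-coding genes there with at least 30 counts. Of the 32 on V, 3 were called higher and 4 lower, beside 10.1% and 7.12%, and of the 6 on IV, 0 and 3, beside 6.42% and 9.21%. These counts are small and were not tested.

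In the solo classes only *srsx-25* was called. This gene on chromosome IV had 57, 70 and 59 counts in wild-type libraries, against 0, 2 and 1 in the mutant. The wild-type to mutant ratio was 36.4 (95% exact counting interval 12.3 to 178; DESeq2, adjusted p = 3.21e-05). Its exons share 160 bases with *agt-1* on the other strand, whose 22G-RNAs had a log2 fold change of 0.08 (SE 0.290). The pheromone receptor gene *srbc-64* had 4, 5 and 9 counts in wild-type libraries, against 7, 5 and 3 in the mutant, which overlapped (0.53, SE 0.825).

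**Figure D4:**
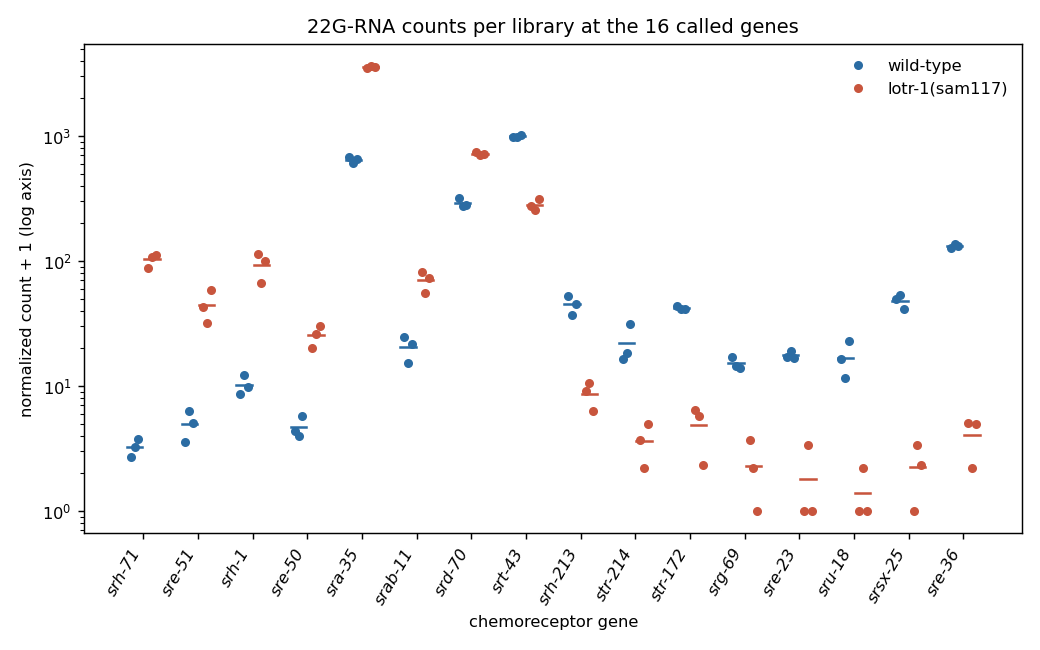
Normalized 22G-RNA count plus 1 (log axis) of the 16 called chemoreceptor genes in each of 3 wild-type (blue) and 3 *lotr-1(sam117)* (red) libraries, with a line at the mean of each genotype. At none of the 16 genes do the points of the genotypes overlap, which adds no support, since the genes were chosen by a test on these same libraries. Among all 60 genes, 16 with an estimate above 0 and 22 with one below 0 had no overlap. At *sre-23*, *sru-18*, *srg-69* and *srsx-25* at least 1 mutant library had no count.

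All 16 called genes were also called by edgeR against a 2-fold change. DESeq2 against no change called them too, as it had to, since it is the same fit with a weaker limit. Total scaling lowered the estimates of these genes. All 9 genes called lower stayed so with it, as they only moved further past the limit, which is no support for their calls. Of the 7 called higher, *sra-35*, *srh-1*, *sre-51* and *srh-71* stayed so. With total scaling *srg-34*, *str-68*, *srh-39* and *str-8* were called lower in addition. Of the 25 genes with over 100 counts 11 were called, and of the 35 with fewer 5 were, with a median SE of 0.40 and 0.79 on the log2 scale. Over all loci of any count 8.15% were called higher and 8.14% lower, and shares by count range were not computed. Summed counts also include the genotype in which a gene is high, so this split is a description only. A test against 2-fold calls a gene only where its estimate lies well beyond 2-fold for its SE. With these SEs, only changes much larger than 2-fold could be called at most of the 60 genes.

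Of the 44 genes not called, 25 had an estimate within 2-fold and 19 beyond it. The most extreme were *srj-13*, with 1, 1 and 5 counts in wild-type libraries, against 4, 5 and 16 in the mutant (2.66, SE 0.941), and *str-8*, with 22, 18 and 36 against 2, 3 and 2 (−2.66, SE 0.742; DESeq2, adjusted p = 0.147). At *srv-7* a single library decided the direction. It had 18, 1 and 5 counts against 4, 3 and 0, and its estimate went from −1.10 to 0.50 without wild-type replicate 1. The other gene at the limit, *srd-20*, had 6, 5 and 5 against 5, 2 and 8 (0.69, SE 0.852), and with total scaling −0.10.

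Ordered by level per kilobase of exon in wild-type, *srt-43* (826 ± 18.01 normalized counts) and *sra-35* (633 ± 34.2) came first, followed by *srd-70* (187 ± 15.3) and *srg-34* (177 ± 21.04), which lay within their spread of each other. *sre-36* (124 ± 4.78) and *srx-12* (120 ± 7.77) also lay within their spread (SD, n = 3). In *lotr-1(sam117)* the order was *sra-35* (3515.6 ± 46.6), *srd-70* (462 ± 12.04), *srt-43* (233.6 ± 22.6) and *srx-7* (113 ± 5.74). Then came *srh-71* (97.4 ± 12.7), *srx-12* (88.2 ± 2.03), *srg-34* (77.3 ± 9.74) and *srh-1* (76.1 ± 20.0), of which neighbors in the order lay within their spread.

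Chemoreceptor genes often lie in clusters, and the changes were set against those of nearby genes. Within 5000 bases of the 16 called genes there were 62 neighbors, counted once for each called gene, of which 36 had an adjusted p-value. Of these, 4 were called in the direction of the chemoreceptor gene, 1 in the opposite direction and 31 were not called. Those in the same direction were *T10D4.6* beside *srh-71*, *dhs-19* (1.88) and *T11F9.19* (2.12) near *srh-1*, and *T22F3.12* (−5.43, SE 0.399) at 539 bases from *srh-213*. The opposite one was *F13A7.11* (1.83), at 4384 bases from *sre-36*. The 14 neighbors that are chemoreceptor genes all had under 30 counts, so within that distance no called gene lay beside another of the 60. The called neighbors were 13.9% of those tested, beside 16.3% of all loci called in either direction. With total scaling 5 neighbors were called in the same direction and 3 in the opposite one. *dhs-19*, *T11F9.19* and *F13A7.11* were then not called, and 6 others were called lower: *F09E5.7*, *sec-6* and *F09E5.8* near *srg-69*, *B0304.4* near *sra-35*, and *T11F9.10* and *T11F9.13* near *srh-1*.

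Below the limit 36 of the 1249 chemoreceptor genes had an adjusted p-value and 1 was called, *srsx-8* on chromosome V. It had 0 counts in each wild-type library and 4, 3 and 4 in the mutant (SE 1.63; DESeq2, adjusted p = 0.0762). With 11 counts in all, it kept the call in only 2 of the alternative settings. It was not called with total scaling and was filtered out before the edgeR test. It is named here because it was the only one.

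Pseudogenes with a chemoreceptor class name were counted in the same way. Of 320, 11 had at least 30 counts (3.44%), against 27.8% of all 2103 pseudogenes. The highest was *srx-70*, with 477, 650 and 718 counts in wild-type libraries, against 577, 667 and 632 in the mutant, and its log2 estimate was 0.80 (SE 0.0899), or 0.01 with total scaling. DESeq2 called 0 of the 11 against 2-fold, with 0 at an unadjusted p under 0.05, beside 8.15% of all loci called higher and 8.14% lower. Against 2-fold edgeR called 2, beside 1253 loci higher and 1366 lower in all. Against no change, with an estimate beyond 2-fold, DESeq2 called 4, beside 1935 loci higher and 1937 lower. With 11 pseudogenes these counts are too few to set against those of the 60 genes.

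Genes that act with the receptors in the same neurons were counted in lists made by function, to be read beside the 8.15% of all loci called higher and 8.14% called lower. Of 20 genes of chemosensory signalling, 9 had at least 30 counts and 0 were called by DESeq2, with 1 at an unadjusted p under 0.05 and 1 called by edgeR against 2-fold. The nearest was *osm-9*, which encodes a TRPV channel of sensory neurons, with 49, 47 and 57 counts in wild-type libraries, against 4, 12 and 7 in the mutant (−1.98, SE 0.455, adjusted p = 0.182), and it was called lower with total scaling. *odr-4*, required for the transport of receptors to cilia, had 190, 246 and 266 against 153, 127 and 125 (−0.01, SE 0.158). Of 12 genes of cilia and sensory neuron fate, 3 had at least 30 counts and 1 was called: *osm-3*, a kinesin motor of cilia, with 2123, 2197 and 2432 against 3695, 4336 and 3582 (1.55, SE 0.0505, adjusted p = 4.21e-26), which with total scaling was 0.76 and not called.

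Of 15 pan-neuronal genes, 10 had at least 30 counts, 2 rose and 3 fell, beside 8.12% and 9.49% of protein-coding genes with at least 30 counts. The synaptic vesicle GTPase gene *rab-3* had 39, 44 and 40 counts in wild-type libraries, against 0, 1 and 0 in the mutant (DESeq2, adjusted p = 4.35e-04). The SNAP-25 gene *ric-4* fell by 2.72 on the log2 scale and the neuropeptide processing gene *egl-21* by 1.95. *unc-10* (1.18) and *unc-31* (1.82), both genes of vesicle release, rose, and neither was called with total scaling.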

How the data were processed

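Raw counts of 22G-RNAs per locus, as deposited by the authors without normalization, were used for 3 wild-type and 3 *lotr-1(sam117)* libraries. Per the labels and the study's methods, the authors trimmed reads with cutadapt 2.4, aligned them to WBcel235 with Bowtie 1.2.2, allowing 1 mismatch and placing multi-mapping reads at random, and counted with featureCounts 1.6.2 reads of 22 bases that start with G and lie antisense to exons of Ensembl release 96. Counts of near-identical paralogs are therefore uncertain. Whether PCR duplicates were collapsed is not given in the sources used here, so intervals and floors cover counting error only. Totals hold 22G-RNAs only and are not sequencing depth. Replicates are separate samples by label, and nothing states that they were separate cultures, so p-values measure the spread between these samples.

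Symbols, biotypes and exons came from Ensembl release 115 (22014 of 22185 identifiers matched), and pseudogene symbols from RefSeq by locus tag (1893 of 2103). All 22336 loci were fitted in DESeq2 1.42.0 (R 4.3.3) with median-of-ratios size factors, a Wald test against an absolute log2 fold change of 1 and an FDR of 10%. Estimates were not shrunken. In simulated counts for this comparison over 22336 loci, 196 of 200 loci changed 8-fold were recovered with 0 false calls. This recovery holds for 8-fold changes only, and no rate was obtained for smaller changes or for genes with low counts. It does not describe the chemoreceptor genes examined, whose median change without regard to sign was 1.22 on the log2 scale. Loci without a change are seldom called in a test against 2-fold, so the 0 false calls say little about the error rate. edgeR 4.0.16 and the other settings are alternatives. Replicate numbers did not pair the libraries. Overlap between genotypes was judged on normalized counts. Levels per length are normalized counts per kilobase of merged exons.

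The members, superfamilies and gene lists were chosen with earlier results of these data known. Genes were named when called with no overlap and a mean normalized count of 50 or more (up to 8 in each direction), when among the 5 highest in a genotype, when in the list of studied receptors, or when among the 3 on each side of the limit. The other called genes, *srx-7*, *str-227*, *str-68*, *srh-39*, *str-8*, *sre-46*, *srsx-8* and the neighbors were named after their values were seen. No genome sequence was used here, so no sequences are shown.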

Additional observations from a re-analysis of the deposited data

How the results depend on the processing

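Counts of called chemoreceptor genes (7 higher, 9 lower) moved with the scaling, the form of the test, the count limit and single libraries. Every call, also in the tests against no change, needed an estimate beyond 2-fold. Total-count scaling gave 4 higher, and a DESeq2 test against no change with that requirement gave 12 higher and 14 lower. edgeR against no change gave 15 lower, and a limit of 100 summed counts, which leaves 25 genes, gave 5 lower. Leaving out each library in turn gave 4 to 6 higher and 5 to 8 lower, and 9 of the 16 genes were called in all 6 refits. Calls over all loci also became fewer in these refits, at 829 to 852 higher and 811 to 860 lower. The lowest counts came without wild-type replicate 2 (4 higher) and without *lotr-1(sam117)* replicate 1 or replicate 3 (5 lower each). *sre-23* and *sru-18* lost their calls without mutant replicate 1 or 3. With TMM factors, no independent filtering, an FDR of 5% or edgeR against 2-fold, both counts stayed within 1.5 times. Over all loci the calls went from 952 higher and 951 lower to 498 and 2331 with total-count scaling, and to 1935 and 1937 with DESeq2 against no change. With edgeR against no change they were 1548 and 1771.

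The median log2 fold change of −0.13 became −0.92 with total-count scaling, −0.47 over the 40 genes with at least 10 counts in 3 libraries and 0.26 over the 25 with at least 100 counts. It ranged from −0.20 to −0.06 without single libraries. The difference in share of 0.00485 percentage points became −0.0142 without the 5 highest genes and ranged from 0.00315 to 0.00690 without single libraries. Estimates changed sign for *srbc-64* (−0.26) and *srd-20* (−0.10) with total-count scaling and for *srv-7* (0.50) without wild-type replicate 1, over a range of −1.81 to 0.50. The causes were not tested.

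The labels give both genotypes replicates 1 to 3. Same-numbered libraries did not deviate together (correlations 0.00799, −0.0126 and 0.0319 over 4070 loci), and a replicate block gave 5 higher and 7 lower, with 12 of the 16 calls shared. The 4 others were *srab-11*, *sre-50*, *srg-69* and *str-214*. Leaving out genes that overlap another gene's exons on the same strand was an alternative chosen after seeing the data and left 6 higher and 9 lower. Alternatives restricted to genes with little sequence shared elsewhere in the genome were not run, since no genome was used here. Low counts limit most of the 60 genes.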
